A study of Mus musculus with 12 samples.

Results

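The genes described here are 10 immediate early genes outside the AP-1 family, chosen by name: the transcription factor genes Egr1, Egr2, Egr3 and Nr4a1, the immediate early response genes Ier2, Ier3 and Ier5, the mRNA decay factor gene Zfp36, the phosphatase gene Dusp1 and the antiproliferative gene Btg2. Each had 1 probe set with a single gene symbol, so all 10 members were found among 19935 genes. They were measured on 12 microarrays of hematopoietic stem cells (HSCs) from mice, the self-renewing cells at the origin of all blood lineages. The cells were lineage- Sca-1+ c-kit+ CD48- CD150+ cells in lots of 5000 to 7000, sorted from mice aged 2 to 3 months. The 4 groups were males given 2 µg of estradiol (E2), the main estrogen, in 100 µL of corn oil under the skin, males given 100 µL of corn oil alone, females given the same E2 dose, and females given corn oil alone. Each group had 3 arrays from 3 mice. The sources used here do not give the strain, the length of the treatment or the estrous stage of the females. All values are linear probe set intensities as the authors deposited them. Levels are compared within a gene, apart from a common filter on dim genes and sums over heat shock genes and cell markers. The brightest genes weigh most in those sums.

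Immediate early genes are transcribed soon after a cell is stimulated, without the need for new protein. The signal commonly runs through the ERK kinases to the serum response factor, which binds a DNA motif called the CArG box, and to CREB, which binds the cAMP response element (CRE). Egr1 is known in mouse HSCs as a gene that is high in resting cells, falls when they divide or leave the marrow, and restrains both. Zfp36 protein destabilises mRNAs with AU-rich ends, and Dusp1 protein switches off MAP kinases, so both limit the response that induces them. Transcripts of this class are also known to rise when tissue is dissociated and cells are sorted.

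The promoters of 7 of the 10 members were in the RefSeq table used for sequence (build GRCm38.p6). Egr1, Egr3 and Ier2 had none there, so they were not searched for motifs. The promoters of Zfp36, Dusp1, Ier3 and Egr2 are shown. Of these, Zfp36, Dusp1 and Ier3 fell with E2 but differ in motifs, and Egr2, a dim gene below the filter, holds a CArG box as Zfp36 does. Ier3 held neither motif marked here. Each line holds the 200 bases before the annotated start, 5′ to 3′ on the strand of the gene, with CArG boxes and the short CRE motif TGACG (either strand) in capitals; for Egr2 it is 1 of 5 annotated starts.
Zfp36, chr7:28379229-28379428, minus strand: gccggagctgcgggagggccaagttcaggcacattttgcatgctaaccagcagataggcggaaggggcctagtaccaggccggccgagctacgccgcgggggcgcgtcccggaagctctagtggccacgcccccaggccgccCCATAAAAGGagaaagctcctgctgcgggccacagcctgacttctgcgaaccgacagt
Dusp1, chr17:26508473-26508672, minus strand: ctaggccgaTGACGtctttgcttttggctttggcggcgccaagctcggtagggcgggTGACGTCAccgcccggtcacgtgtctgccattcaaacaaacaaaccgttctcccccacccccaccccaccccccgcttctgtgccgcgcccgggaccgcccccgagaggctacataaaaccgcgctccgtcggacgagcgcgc
Ier3, chr17:35821513-35821712, plus strand: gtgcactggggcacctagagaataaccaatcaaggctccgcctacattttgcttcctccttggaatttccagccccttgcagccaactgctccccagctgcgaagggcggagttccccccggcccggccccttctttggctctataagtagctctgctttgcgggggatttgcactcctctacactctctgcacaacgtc
Egr2, chr10:67537669-67537868, plus strand: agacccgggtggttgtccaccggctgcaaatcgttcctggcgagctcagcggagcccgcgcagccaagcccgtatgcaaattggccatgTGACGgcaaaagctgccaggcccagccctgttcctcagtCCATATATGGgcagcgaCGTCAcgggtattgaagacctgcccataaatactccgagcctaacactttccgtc
In the window of 250 bases before to 50 bases after each start, searched on both strands, a CArG box was present in Zfp36, beginning at position -58 from the start, and in Egr2, at -72 from the start shown, against 1.63% of 32851 RefSeq promoter windows of the same length. The full CRE, TGACGTCA, was present in Dusp1, at -143, and in Btg2, at -166, against 1.79% of windows. This palindrome also counts as overlapping matches to the short motif TGACG, which 20.8% of windows held. The full palindromic estrogen response element was found in 0.07% of windows and in none of the 7 members searched, which do not include Egr1, Egr3 or Ier2. These matches describe letters in the sequence and not bound sites.

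Median intensities of the arrays lay between 143 and 159. Female E2 replicate 1 stood furthest from the other arrays of its own group, by a root mean square difference of 0.30 on the log2 scale over 9967 genes, against 0.25 and 0.26 for the other female E2 arrays and 0.15 to 0.19 for arrays of the other groups. Its Xist intensity of 3897 lay with the females (3417 to 3897) and not with the males (61.9 to 73.0). Results that rest on this array are given with and without it. All 8 measured HSC markers, among them Slamf1, which encodes CD150, Kit and Procr, lay above the filter on dim genes, an intensity of 182, and Cd48, whose protein the sorted cells lack on their surface, lay below it. Ly6a, which encodes Sca-1, was not analysed here. Of the 10 members, 8 passed the filter; Egr2 and Btg2 did not.

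**Figure D1:**
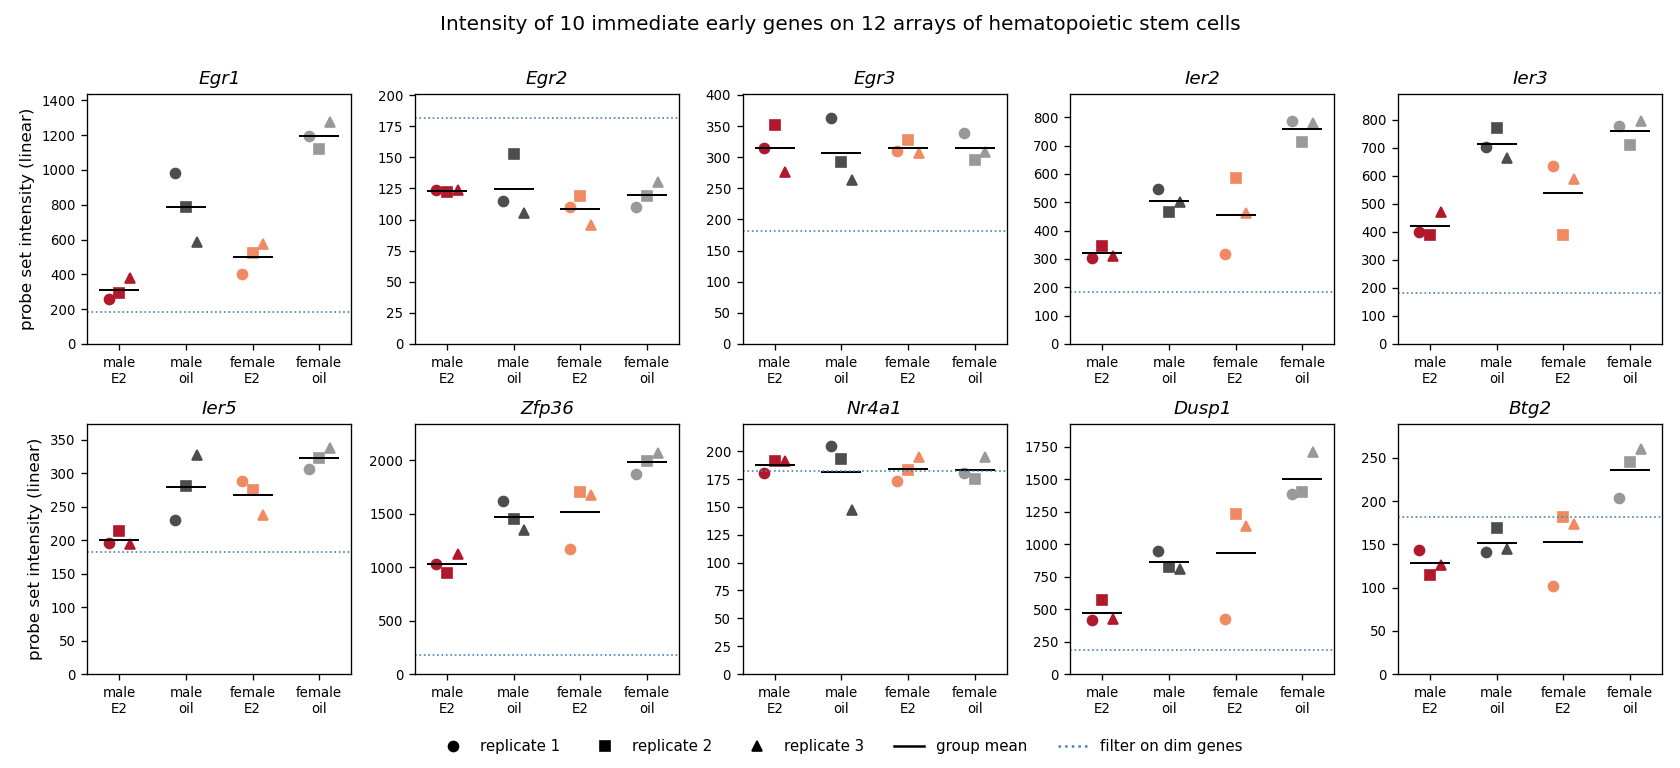
Linear probe set intensity (vertical axes from 0, a scale for each gene) of the 10 members in male E2, male oil, female E2 and female oil arrays; symbols mark replicates, bars group means, and the dotted line the filter at 182. Egr1, Ier2, Ier3, Ier5, Zfp36 and Dusp1 are lower on every E2 array than on every oil array of the same sex, while Egr2, Egr3 and Nr4a1 show no such separation.

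The main question was how E2 altered these genes in each sex. Averaged over the sexes, 6 of the 8 tested members fell with E2 (Egr1, Ier2, Ier3, Ier5, Zfp36 and Dusp1), 0 rose, and Egr3 and Nr4a1 did not pass. Over all 9967 genes tested, 5.78% were called lower and 3.12% higher in this comparison. Calls were made by limma's moderated test with Benjamini-Hochberg adjustment over all genes, at an adjusted p under 0.05. The median log2 fold change was -0.55 over the 8 tested members and -0.01 over all genes. The same 6 members did not overlap between E2 and oil arrays in either sex, a separation found downward in 13.0% of genes in males, in 13.1% in females and in 4.88% in both.

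Egr1 had the largest change of the 10. Its intensity was 258, 294 and 379 in E2-treated males, against 983, 789 and 587 in oil-treated males. In females it was 404, 524 and 576 with E2, against 1195, 1121 and 1277 with oil. All E2 arrays of both sexes lay below all oil arrays of both sexes. The averaged log2 fold change was -1.30 ± 0.13 (SE, 12 arrays; 95% interval -1.58 to -1.01; adjusted p = 6.59e-05 by limma), a level 2.46-fold lower with E2. It was -1.33 in males (adjusted p = 0.00229) and -1.27 in females (adjusted p = 0.00302), and Egr1 was the only member called in both sexes alone.

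The other Egr genes encode zinc finger proteins that bind the same DNA motif as Egr1 protein. Egr3 read 315, 351 and 276 in male E2 arrays, against 363, 292 and 264 in male oil arrays. In females Egr3 read 310, 328 and 306 with E2, against 339, 295 and 309 with oil. The groups overlapped in both sexes, and the averaged log2 fold change of Egr3 was 0.02 (95% interval -0.16 to 0.20). Egr2 was dim throughout, at 122 to 124 in male E2 arrays, against 105 to 153 in male oil arrays, and at 96.0 to 119 in female E2 arrays, against 110 to 130 in female oil arrays. In a fit without the filter its averaged log2 fold change was -0.07 (95% interval -0.27 to 0.14). Egr4, the remaining member of the family, had -0.04 (adjusted p = 0.846), and the corepressor genes Nab1 and Nab2, whose proteins bind Egr proteins, had 0.13 and -0.09 (adjusted p = 0.317 and 0.354 by limma).

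Ier2 encodes a nuclear protein of the early growth factor response. It read 304, 346 and 309 in E2-treated males, against 546, 465 and 500 in oil-treated males. In females it read 317, 585 and 462 with E2, against 787, 713 and 779 with oil. The E2 and oil arrays did not overlap within either sex, and female E2 replicate 1 lay at the level of the male E2 arrays. The averaged log2 fold change of Ier2 was -0.72 ± 0.12 (SE; adjusted p = 0.00224 by limma), with -0.65 in males (adjusted p = 0.0807) and -0.78 in females (adjusted p = 0.021). The call in females ended without any 1 of the 3 female oil arrays (adjusted p from 0.0612 to 0.0865).

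Ier3 encodes a stress-inducible regulator of cell survival. It had 401, 388 and 472 in male E2 arrays, against 703, 770 and 663 in male oil arrays. In females it had 635, 387 and 590 with E2, against 777, 709 and 796 with oil. Here female E2 replicate 2, not replicate 1, was the lowest of its group. The averaged log2 fold change of Ier3 was -0.65 ± 0.11 (SE; adjusted p = 0.00276 by limma), with -0.76 in males (adjusted p = 0.0248) and -0.53 in females (adjusted p = 0.0782). Without female E2 replicate 2 the female value was -0.31 (adjusted p = 0.154). The call in males ended without any 1 of the 6 male arrays (adjusted p from 0.0501 to 0.125).

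Ier5, a relative of Ier2 known for its part in the heat shock factor response, read 195, 213 and 194 in E2-treated males, against 230, 280 and 327 in oil-treated males. In females Ier5 read 288, 274 and 238 with E2, against 306, 323 and 338 with oil. Its averaged log2 fold change of -0.37 ± 0.08 (SE; adjusted p = 0.0159) was the smallest of the 6 that were called, and neither sex alone passed (adjusted p = 0.0877 in males and 0.226 in females by limma). Ier5l, the related gene, had -0.04 (adjusted p = 0.792).

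Among the genes that limit signalling, Zfp36 read 1024, 942 and 1122 in male E2 arrays, against 1616, 1451 and 1345 in male oil arrays. In females Zfp36 read 1166, 1700 and 1677 with E2, against 1874, 1988 and 2071 with oil. No E2 array reached the oil range of its own sex, though 2 female E2 arrays lay above every male oil array. The averaged log2 fold change was -0.46 ± 0.09 (SE; adjusted p = 0.00937 by limma), with -0.51 in males and -0.40 in females, where adjusted p was 0.0895 and 0.118. Of its paralogs, which encode decay factors of the same kind, Zfp36l1 fell by 0.25 on the log2 scale (adjusted p = 0.024 by limma), while Zfp36l2 had -0.13 (adjusted p = 0.204).

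Dusp1 had 415, 574 and 422 in E2-treated males, against 950, 827 and 812 in oil-treated males. In females it had 426, 1233 and 1141 with E2, against 1386, 1402 and 1708 with oil. Female E2 replicate 1 lay within the male E2 range, far below the other female E2 arrays, and the female E2 coefficient of variation was 47.4%, against 12.1% in female oil arrays. The averaged log2 fold change was -0.85 ± 0.21 (SE; adjusted p = 0.024 by limma), with -0.89 in males (adjusted p = 0.185) and -0.82 in females (adjusted p = 0.148). The averaged call ended on leaving out male E2 replicate 1 or 3, male oil replicate 1 or 2, or female oil replicate 2 or 3 (adjusted p from 0.0507 to 0.0628), and without a filter (adjusted p = 0.0528).

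Nr4a1, which encodes an orphan nuclear receptor, lay close to the filter in all groups. It read 180, 191 and 191 in male E2 arrays, against 205, 193 and 147 in male oil arrays, and in females 173, 183 and 195 with E2, against 180, 175 and 195 with oil. The groups overlapped, and the averaged log2 fold change was 0.03 (95% interval -0.14 to 0.20). Btg2, whose protein slows the cell cycle, lay around the filter. It read 144, 115 and 126 in male E2 arrays, against 141, 169 and 145 in male oil arrays. In females it read 102, 182 and 174 with E2, against 204, 245 and 260 with oil, so the groups overlapped in males and not in females. Without the filter Btg2 had an averaged log2 fold change of -0.45 (95% interval -0.74 to -0.16), which did not pass over all genes (adjusted p = 0.101 by limma). The related genes Btg1 and Nr4a2 had -0.27 and -0.09 (adjusted p = 0.109 and 0.548).

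**Figure D2:**
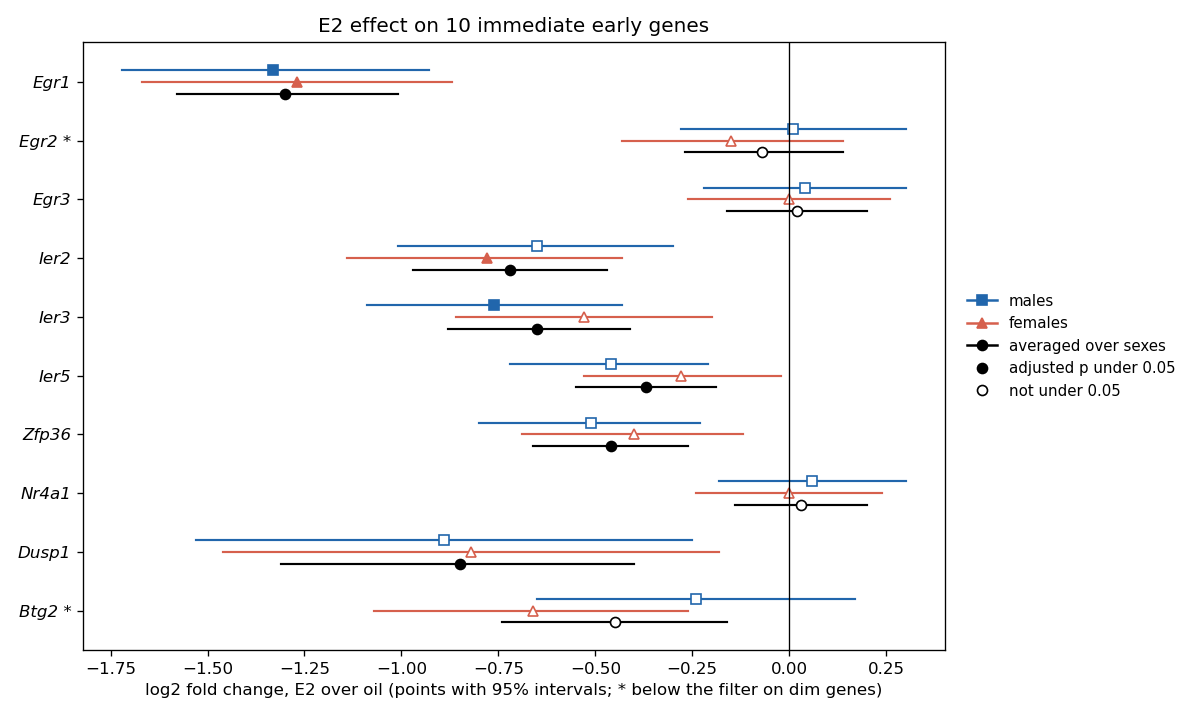
Log2 fold change of E2 over oil with 95% intervals for the 10 members in each sex and as the average of the sexes; filled symbols passed at an adjusted p under 0.05, and asterisks mark Egr2 and Btg2, which come from the fit without a filter. The averaged values of the 6 called members run from -1.30 for Egr1 to -0.37 for Ier5.

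Within the sexes alone fewer members passed. In males 2 of 8 were called lower, Egr1 and Ier3, where 0.863% of all genes were called lower. In females 2 of 8 were called lower, Egr1 and Ier2, where 2.75% of all genes were. The difference between the 2 responses was tested directly, and 0 of 8 members passed by limma (0.0100% of all genes did; at an unadjusted p under 0.05, 0 members and 5.37% of all genes). The female response minus the male response was 0.06 for Egr1 (95% interval -0.51 to 0.62), -0.13 for Ier2 (-0.63 to 0.37) and 0.23 for Ier3 (-0.24 to 0.70). For Dusp1 the interval ran from -0.84 to 0.97, so differences between the sexes up to these sizes were not excluded by these arrays.

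Without female E2 replicate 1, the averaged comparison called the same 6 members, and 10.2% of all genes in either direction, against 8.90% with it. In males the members called were then 6 (Egr1, Ier2, Ier3, Ier5, Zfp36 and Dusp1) against 2 with all arrays, at the same male fold changes. Calls over all genes in males were then 327, or 3.28%, against 143 with all arrays. In females the members called were then 3, Egr1 at -1.12 (adjusted p = 0.0059), Ier2 at -0.54 (adjusted p = 0.0177) and Ier3 at -0.67 (adjusted p = 0.0245 by limma). Over all genes 549 or 5.51% were called in females, against 355 with all arrays. The female log2 fold change of Dusp1 was then -0.33 in place of -0.82, and that of Zfp36 -0.23 in place of -0.40. This array was the lowest of its group for 5 of the 8 tested members and the highest for 2, Ier3 and Ier5.

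**Figure D3:**
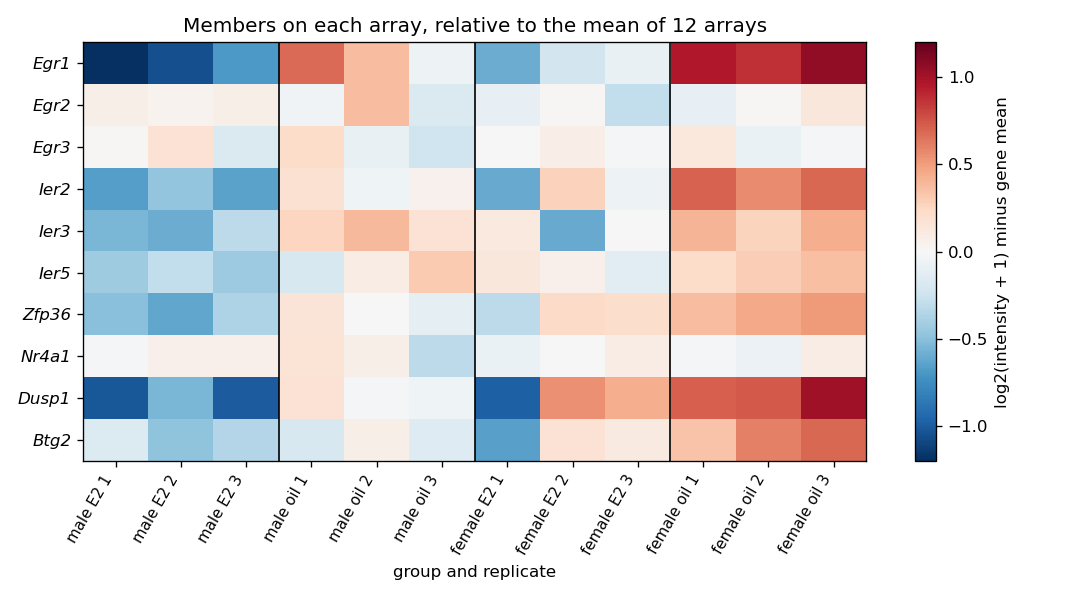
Log2(intensity + 1) of each member on each of the 12 arrays minus its mean over all arrays, from -1.2 (blue) to 1.2 (red), with groups in columns from male E2 to female oil. By group mean, Egr1, Ier2, Zfp36 and Dusp1 are lowest in male E2 arrays and highest in female oil arrays. Female E2 replicate 1 lies below the other female E2 arrays for Egr1, Ier2, Zfp36, Nr4a1, Dusp1 and Btg2 but not for Egr2, Egr3, Ier3 or Ier5.

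Several members also read higher in females than in males given the same treatment. By group mean, Egr1 read 310 ± 62.4 in male E2, 502 ± 88.2 in female E2, 786 ± 198 in male oil and 1198 ± 78.4 in female oil arrays (SD, n = 3). Female E2 and male oil levels of Egr1 nearly met, at 576 for the highest female E2 array and 587 for the lowest male oil array. Zfp36 averaged 1514 ± 302 in female E2 and 1029 ± 89.8 in male E2 arrays, and 1978 ± 99.3 in female oil and 1471 ± 136 in male oil arrays. Under oil, 4 of the 8 tested members (Egr1, Ier2, Zfp36 and Dusp1) read higher on every female array than on every male array, where 5.65% of all genes did. Under E2 this held for 3 of 8 (Egr1, Ier5 and Zfp36), where 4.10% of all genes did. For Egr1 and Zfp36 it held under both treatments, as for 0.472% of all genes. These 2 members were also lower on every E2 array in both sexes, a combination found in 0.0602% of all genes. The combination was read from these same arrays, so its share describes the 2 members and does not test them.

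By limma none of these sex differences passed over all genes on 12 arrays. Under oil 0 of 8 members were called and 4 had an unadjusted p under 0.05, where 0.0401% of all genes were called and 4.99% had such a p. Under E2 0 of 8 were called and 5 had one, against 0.0100% and 9.04% of all genes. The difference averaged over both treatments, a comparison added after these values had been seen, was 0.67 ± 0.13 for Egr1 (SE; adjusted p = 0.158), 0.48 ± 0.09 for Zfp36 (adjusted p = 0.158) and 0.82 ± 0.21 for Dusp1 (adjusted p = 0.334). Ier2 had 0.53 ± 0.12 (adjusted p = 0.237), and Egr3 and Nr4a1 had intervals of -0.15 to 0.21 and -0.17 to 0.17. Only 0.0401% of all genes were called in this comparison.

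Whether members were called for the sex difference depended on 1 array. The fit without that array was chosen after the values had been seen. Without female E2 replicate 1, the averaged sex difference was 1.07 ± 0.10 for Dusp1 (SE; adjusted p = 0.000178), 0.65 ± 0.08 for Ier2 and 0.57 ± 0.07 for Zfp36 (adjusted p = 0.00236 each) and 0.74 ± 0.13 for Egr1 (adjusted p = 0.0384 by limma). These 4 of 8 members were among 21 of 9967 genes called, or 0.211%. The array left out was the lowest of its group for each of these 4, so its removal was bound to raise their female mean. Their adjusted p-values thus describe that fit and are not an independent test. Each of the other 11 fits that left out 1 array called 0 members. With array weights, which gave female E2 replicate 1 a weight of 0.33, the lowest of the 12, Ier2, Zfp36 and Dusp1 were called.

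**Figure D4:**
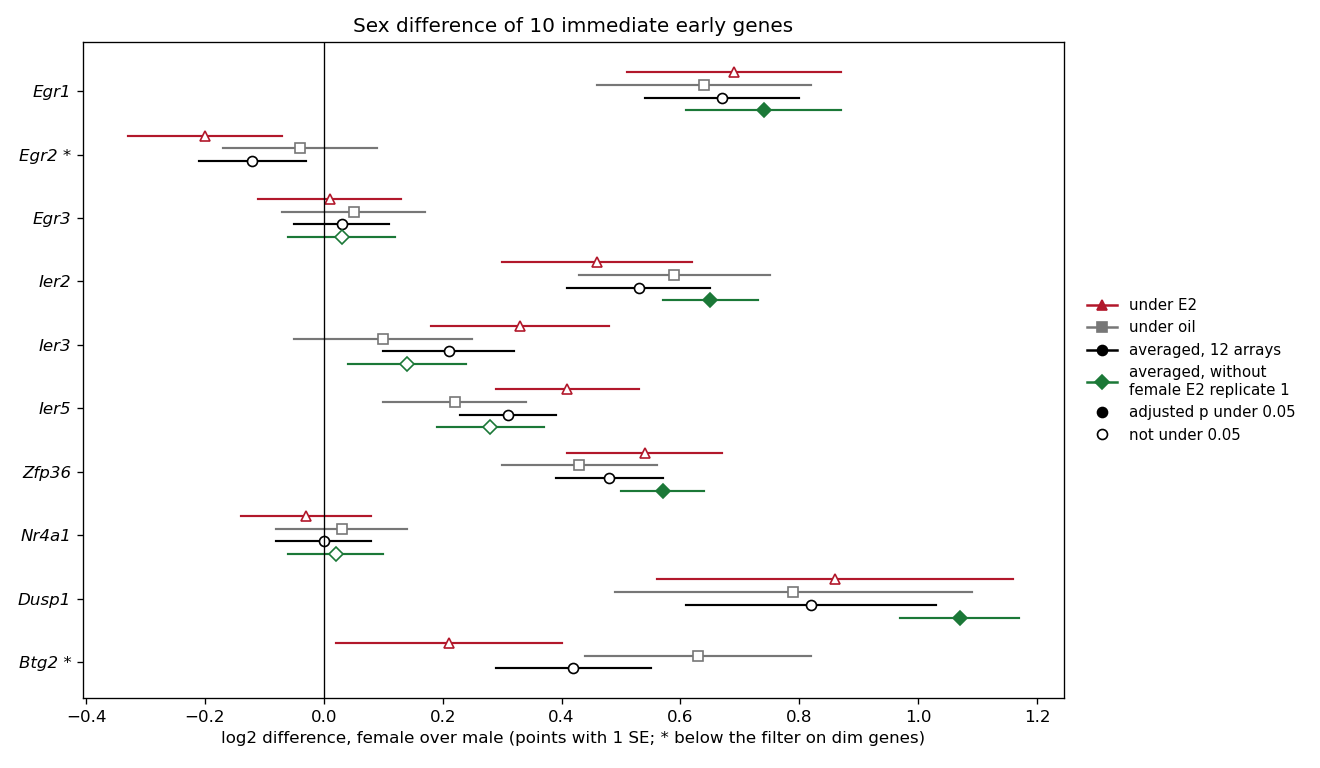
Log2 difference of female over male arrays with 1 SE for the 10 members under E2, under oil, averaged over both on 12 arrays, and averaged without female E2 replicate 1 (8 members); filled symbols passed at an adjusted p under 0.05. Egr1, Ier2, Zfp36 and Dusp1 lie above 0 in all 4 series, and pass in the last, which was chosen after the values had been seen. Egr3, Ier3 and Ier5 also lie above 0 in all 4 series and pass in none.

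In the averaged E2 comparison 8.90% of all tested genes were called in either direction, a share to set beside the lists that follow. The AP-1 genes encode the Fos and Jun transcription factors, which respond to the same signals. Of 4 tested, Junb and Jun fell with E2 on average, at -0.59 (adjusted p = 0.0163) and -0.86 (adjusted p = 0.0485 by limma), and Jund and Fosb did not pass, at -0.21 and -0.13 (adjusted p = 0.344 and 0.698). Jun read 335, 329 and 403 in male E2 arrays, against 930, 566 and 675 in male oil arrays, and 420, 1303 and 1520 in female E2 arrays, against 1445, 1460 and 1755 in female oil arrays. Fos, below the filter, read 44.0 to 50.6 in male E2 arrays, against 47.2 to 88.6 in male oil arrays, and in females 48.0, 284 and 341 with E2, against 355, 296 and 617 with oil. On female E2 replicate 1 both Jun and Fos thus lay near the male E2 arrays.

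Other immediate early genes moved in both directions. Of 16 tested of 28, 2 rose and 2 fell with E2 on average and 12 did not pass, with a median log2 fold change of -0.05. Pim1, a survival kinase gene, rose by 0.81 (adjusted p = 0.0036), and Sgk1, a kinase gene known to be induced by steroid hormones, rose by 0.90 (adjusted p = 0.0189 by limma). Nfkbiz and Nfkbia, which encode IκB proteins of the NF-κB pathway, fell by 0.47 (adjusted p = 0.00152) and 0.40 (adjusted p = 0.0201). Gadd45a, a stress response gene below the filter, had the smallest p of the list in the fit without it, at -0.94 (adjusted p = 0.00326).

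Genes that carry the signal to these promoters were measured as mRNA only, and kinase or serum response factor activity was not measured. Of all tested genes, 8.90% were called in either direction. Of 23 tested of 30 genes of the ERK, stress kinase and serum response factor relay, 0 rose, 1 fell and 22 did not pass, with a median of 0.03. Sos2, a Ras activator gene, was the one that fell, at -0.24 (adjusted p = 0.0356 by limma). Map2k2, Elk3 and Sos1 had 0.17, -0.13 and -0.13 (adjusted p from 0.143 to 0.201). Of 9 tested of 14 genes of negative feedback on MAP kinases, Dusp6 rose by 0.38 (adjusted p = 0.0183), Spry2 fell by 0.40 (adjusted p = 0.017), Dusp4 fell by 0.26 (adjusted p = 0.0436 by limma), and 6 did not pass. Dusp7 had -0.37 (adjusted p = 0.0768).

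Of 6 tested of 15 targets of p53, Trp53inp1 fell by 0.62 (adjusted p = 0.00123 by limma), and 5 did not pass, among them Ccng1 at -0.15, Bbc3 at -0.06 and Sesn1 at -0.08 (adjusted p from 0.101 to 0.642). Below the filter, in the fit without it, Perp had a value in the other direction, 0.67 (adjusted p = 0.00467), and Zmat3 had -0.28 (adjusted p = 0.162). Of 8 tested of 12 heat shock genes, which also respond to the handling of cells, only Bag3 fell, at -0.48 (adjusted p = 0.00159 by limma), and 7 did not pass, with a median of 0.10. Hsp90aa1, Hsph1 and Hspd1 had 0.18, 0.39 and 0.18 (adjusted p from 0.128 to 0.197). The summed intensity of 10 measured heat shock genes was 18682 to 20404 in male E2 arrays, against 16811 to 17961 in male oil arrays, and 17608 to 21424 in female E2 arrays, against 17505 to 18585 in female oil arrays. Thus the sums did not overlap in males and overlapped in females. The 21424 was female E2 replicate 1, the lowest of its group for 5 members, and the other female E2 arrays had 17759 and 17608. The brightest genes of the sum, Hspa8, Hsp90aa1, Hspe1 and Hspd1, each read highest on that array within the group. Hspa1a and Hspb1, both below the filter, read lowest on it. Hspa1a had 141 there, against 246 and 203 on the other female E2 arrays, and Hspb1 had 136, against 167 and 145. The part of handling in the members' values was not tested.

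Markers of other blood cells moved with E2 too. Of 6 tested megakaryocyte markers 4 fell and 1 rose, and their sum over 7 measured genes was 2828 to 3142 in male E2 arrays, against 3579 to 3981 in male oil arrays, and 2147 to 3025 in female E2 arrays, against 3579 to 3907 in female oil arrays. Female E2 replicate 1 had the 2147, and the other female E2 arrays, at 3025 and 2705, were still below all oil arrays. Plek and Pf4 had the smallest p among them, at -1.33 (adjusted p = 2.08e-05) and -1.40 (adjusted p = 6.59e-05 by limma). Gp9 rose, at 0.51 (adjusted p = 0.0187), and Vwf had 0.28 and did not pass (adjusted p = 0.108 by limma). Of 4 tested progenitor markers 3 fell (Flt3, Cd34 and Satb1) and Cebpa rose, with sums of 2318 to 2470 in male E2 arrays, against 2546 to 3019 in male oil arrays, and 2231 to 2512 in female E2 arrays, against 2608 to 3095 in female oil arrays. Of 7 tested neutrophil and monocyte markers only Prtn3 fell, at -0.29 (adjusted p = 0.0315), and the sums overlapped, at 8375 to 12961 in male E2 arrays, against 8975 to 15630 in male oil arrays, and 6788 to 14049 in female E2 arrays, against 10543 to 19462 in female oil arrays. The 6788 was female E2 replicate 1, and the other female E2 arrays had 10932 and 14049. Ccr2, a monocyte gene below the filter, had 0.58 in the fit without it (adjusted p = 0.0449).

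Of 3 tested lymphoid markers Cd79b fell, at -0.41 (adjusted p = 0.0199 by limma), with sums of 1261 to 1386 in male E2 arrays, against 1315 to 1584 in male oil arrays, and 1262 to 1342 in female E2 arrays, against 1403 to 1453 in female oil arrays. Of 3 tested erythroid markers Tfrc rose, at 0.36 (adjusted p = 0.0491), with sums of 2710 to 3075 in male E2 arrays, against 2475 to 2878 in male oil arrays, and 2805 to 3365 in female E2 arrays, against 2464 to 3264 in female oil arrays. Of 8 tested HSC markers Procr, Kit and Esam fell, at -0.47, -0.32 and -0.30 (adjusted p from 0.000537 to 0.00587 by limma), and 5 did not pass. Of 12 measured neutrophil and monocyte markers 7 lay above the filter, among them S100a8, with group means from 3394 to 4198. Ccr2, Cd14, Csf1r, Fcgr3 and Ly6g lay below it. Of 9 measured lymphoid markers 3 lay above it (Cd79b, Cd3e and Cd4). Cd79a, Ms4a1, Cd3g, Cd8a, Klrb1c and Ncr1 lay below it, and no marker read 0 on any array. The part of such cells in the fall of the members was not tested, and in sorted bulk cells fewer cells of a type and less RNA per cell cannot be told apart.

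The genes most like Egr1 and Ier2 across the arrays were found by the root mean square difference of centred log2 values over the 12 arrays, which share their mice and arrays by design. Nearest to Egr1 were Snord118 at 0.31, Ier2 at 0.37, Dusp1 at 0.40, Junb at 0.41 and Apoe at 0.42, against a median of 0.77 over all genes. Snord118 encodes a small nucleolar RNA and Apoe a lipid carrier protein. Nearest to Ier2 were Zfp36 at 0.20, Ctsl at 0.25, H1f3 and H1f2 at 0.26 and H2bc8 at 0.27, against a median of 0.51. Ctsl encodes a lysosomal protease, and the last 3 are replication-dependent histone genes. A gene that did not vary would lie at 0.76 from Egr1 and 0.49 from Ier2, the spread of each target itself. The medians of 0.77 and 0.51 lie near these values.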

How the data were processed

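Gene expression was measured on 12 arrays hybridised with biotin-labelled cDNA from the NuGEN Ovation Pico system, per the labels' protocols. The values deposited by the authors are linear intensity values of 35474 probe sets, from 0.620 to 16148. The sources used here do not give the background correction, normalization or software behind them. Gene symbols came from the platform's annotation. Those without a single symbol (1605 with several, 12089 with none) were not used, and the brightest probe set stood for each of 19935 genes. Older names in the gene lists were matched through RefSeq synonyms.

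Fits used log2(intensity + 1), and fold changes are on that scale. Genes with a mean above the median of genes (log2 7.52, intensity 182) were tested, 9967 in all. limma 3.58.1 in R 4.3.3 fitted 1 mean per group to all 12 arrays, moderated by eBayes (5.38 prior and 8 residual degrees of freedom), and p-values were adjusted by Benjamini-Hochberg across the tested genes and called under 0.05. Egr2 and Btg2 come from the same fit without the filter. The number of arrays limits precision, and no pair of arrays held identical values. On simulated data for the averaged E2 comparison over 9967 genes, 42% of changes of -0.3 on the log2 scale were recovered, 88% of -0.5 and 100% of -1, and 13 of 178 calls were false. The simulation changed 200 genes, all downward, and gave each gene independent normal noise. No array deviated over many genes together, so these rates need not hold for the deposited data.

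The members, lists and tests were chosen with earlier results of these data known. All 10 members were named, with up to 4 genes of smallest p in the averaged comparison per list, Fos, Jun and Junb, up to 3 called markers per list, and the 5 genes nearest to Egr1 and to Ier2. Further markers, Egr4, Ier5l and the genes of the closing section were chosen after seeing their values, as were the averaged sex difference and the fits of all members without female E2 replicate 1. Other settings tried were an offset of 16, median centring, quantile normalization, a filter at the 25th percentile or none, the mean of probe sets, trended robust eBayes, array weights, the compared groups alone, a replicate block and each array left out. Same-numbered arrays did not deviate together (r from -0.26 to 0.20 over pairs). Python 3.11.15 drew the figures with matplotlib 3.10.9.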

Additional observations from a re-analysis of the deposited data

How the results depend on the processing

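The averaged E2 comparison called 5 or 6 members under every alternative run, and Egr1, Ier2, Ier3, Ier5 and Zfp36 passed in all 21; Dusp1 passed in 14. Egr1 also passed in each sex under all 22 alternatives. Counts in a single sex moved more. Members called in males were 1 with median centring or no filter, 6 with array weights and 5 with the compared groups alone, and 1 to 6 with 1 array left out, against 2. Members called in females were 1 with no filter or the compared groups alone and 1 to 3 with 1 array left out, against 2. All genes called in males were 80 with no filter, 409 with array weights and 390 with the compared groups alone, and 62 to 327 with 1 array left out, against 143. In females they were 183, 226 and 67 under the same settings and 115 to 549, against 355. For the average they were 568 with no filter and 476 to 1147 with 1 array left out, against 887. Median centring moved the share of higher calls to 11.2% from 22.8% in females, and it moved the median of all genes in the difference of responses to -0.13.

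For the sex difference under oil, 1 member was called with the compared groups alone and 0 to 1 with 1 array left out, against 0; all genes called were 7 with no filter, array weights or the compared groups alone and 2 to 8, against 4. Under E2 the members were 0 to 3 with 1 array left out, and all genes 4 with no filter, 3 with the filter at the 25th percentile and 1 to 17, against 1. For the averaged sex difference the members were 3 with array weights and 0 to 4, and all genes 7 with no filter or the filter at the 25th percentile, 11 with array weights, 2 with the replicate block and 2 to 21, against 4. The difference of responses called 1 to 2 genes and 0 members. Among the fits with 1 array left out, the highest counts for the sex differences came without female E2 replicate 1. The sample titles number the replicates and do not say whether same-numbered arrays were paired. With the replicate block the averaged E2 comparison called 736 genes, and the members called were as in the report in all comparisons. The cause of these shifts was not tested. Levels near 182 limit what can be said of Nr4a1, Egr2 and Btg2.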

Other observations

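Among all 9967 genes, 6 read lower on every E2 array than on every oil array in both sexes and higher on every female array than on every male array under both treatments, 0.0602% of those tested. Beside Egr1 and Zfp36 these were Casp6, an effector caspase gene, the histone genes H1f3 and H2bc8, and Smim19. H2bc8 read 988 to 1182 in male E2 arrays, against 1486 to 1632 in male oil arrays, and 1210 to 1443 in female E2 arrays, against 2063 to 2086 in female oil arrays. Its averaged E2 effect was -0.59 (adjusted p = 0.000131 by limma) and its averaged sex difference 0.35 (adjusted p = 0.137). Smim19 did not pass for either.

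Without female E2 replicate 1, the 21 genes called for the averaged sex difference held Xist at 5.66 and Kdm6a at 0.43, both X-linked, and beside Egr1, Ier2, Zfp36 and Dusp1 the AP-1 genes Jun at 1.56, Fosb at 0.83 and Jund at 0.59 (adjusted p = 4.35e-05, 0.0272 and 0.0376 by limma). Ppp1r15a, a stress-induced phosphatase subunit gene, had 1.21 (adjusted p = 0.000383), and Rhob, a GTPase gene that is itself an immediate early gene, had 0.90 (adjusted p = 0.00764). Of the 21, 15 were higher in females and 6 lower. Within the female E2 group, the array left out read lowest for Jun (420 against 1303 and 1520), Fosb (192 against 330 and 382) and Jund (676 against 985 and 1204). Its removal was thus bound to raise their female mean, and their adjusted p-values are not an independent test. With all arrays Jun, Fosb and Jund had averaged sex differences of 1.27, 0.68 and 0.48, and none passed (adjusted p = 0.158, 0.334 and 0.347 by limma). The list was read after the array had been seen to stand apart, and what set that array apart from the other female E2 arrays was not tested.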
